A study of Homo sapiens with 12 samples.

Results

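KIAA1217, NRP1, PLPP4, CAVIN1, WTIP, EDN3, IDUA and SPON2 are 8 autosomal genes that the study lists as upregulated in SH-SY5Y cells without Tau. They were selected on the H3K27me3 peaks themselves. In both peak lists of Tau-expressing cells (WT) a peak lay within 1 kb of an annotated transcription start site (TSS), hereafter a TSS mark, and in neither list of the Tau-KO line 231K was there such a peak. Of the 723 symbols in the list of upregulated genes, 686 matched a protein-coding gene, 104 of these had a TSS mark in both WT lists, and 11 of the 104 had none in either 231K list. CCL2, CXCL12 and IL13RA2 also fulfilled the rule and are not described here. Over the whole series, 20033 protein-coding genes were considered, 3300 had a TSS mark in both WT lists, and 83 of these, 2.52%, had none in either 231K list. The values in WT and 231K chose the members, so all differences between these genotypes are descriptions and no test was made of them.

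The data are chromatin immunoprecipitations (ChIP) with an H3K27me3 antibody on SH-SY5Y, a human neuroblastoma line, sequenced in 6 samples. The 3 genotypes were WT, the Tau knock-out 231K and the Tau knock-out 232P, with 2 biological replicates each and no treatment. Each knock-out is a single CRISPR-Cas9 line, so a difference from WT may belong to the line as well as to the loss of Tau. Peak names inside the 2 files labelled 232P start with 231P, a further Tau-depleted line of the study. The labels were followed, and which line these lists came from cannot be told apart here.

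The lists held 285826 peaks (WT replicate 1), 222191 (WT replicate 2), 271413 and 212347 (231K), and 147118 and 199677 (232P). Relative to the deepest library, WT replicate 1 at 100%, the depth was 66.6% in WT replicate 2, 94.8% and 68.7% in 231K, and 68.1% and 56.9% in 232P. Both 231K libraries thus lay within the depths of the WT libraries, whereas 232P replicate 2 was the shallowest of all. The lowest peak over the genome-wide background was 5 reads high in every list. A TSS mark missing from a list means that no peak there passed the threshold at that depth, and not that the histone mark was absent. In bulk chromatin, fewer cells with the mark and less of the mark per cell cannot be told apart.

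H3K27me3 is set by Polycomb repressive complex 2 (PRC2), a methyltransferase whose catalytic subunit is EZH2 or EZH1. The mark is typical of silent developmental genes, where it often spreads over many kilobases around CpG-rich start sites, and it is diluted or removed when such genes are switched on. Neuroblastoma cells derive from the sympathetic lineage of the neural crest, and many genes of other lineages carry the mark there. Of the genes that noradrenergic neuroblastoma cells use, those reported here (PHOX2A, HAND2, GATA2, GATA3, ISL1, TH and DBH) had no TSS mark in any of the 6 lists. No peak was listed in MAPT, the gene of Tau, or within 1 kb of it.

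The stretches that lay under a peak in both WT replicates, next to a TSS, and under none in 231K are the bases on which the WT replicates coincide, not the width of the mark. In 5 of the 8 genes (KIAA1217, WTIP, EDN3, IDUA and SPON2) the TSS peaks of the WT replicates shared at least 1 base, and 4 of these stretches are printed from the hg38 genome in the direction of transcription, with each CG dinucleotide in capitals because the mark favours CG-rich DNA. KIAA1217 had 2 such stretches. The one printed (chr10:23693790-23694010, plus strand) lies upstream of the gene and was fully covered in both 232P lists, whereas the other, of 332 bp in an intron (chr10:23695464-23695795), was fully covered in 232P replicate 1 and not at all in 232P replicate 2. The IDUA stretch (chr4:998635-998890, plus strand) is intronic and 251 of its 256 bases were covered in 232P replicate 1. The last 150 bases of the WTIP stretch (chr19:34483520-34483669, plus strand) are intronic, and the last 150 bases of the SPON2 stretch (chr4:1173756-1173905, minus strand) lie in an intron and were covered in no Tau-KO list.
KIAA1217: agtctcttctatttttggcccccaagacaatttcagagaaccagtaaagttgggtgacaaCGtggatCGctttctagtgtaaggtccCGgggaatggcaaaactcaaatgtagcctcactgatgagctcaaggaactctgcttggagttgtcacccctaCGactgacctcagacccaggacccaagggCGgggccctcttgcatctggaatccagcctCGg
IDUA: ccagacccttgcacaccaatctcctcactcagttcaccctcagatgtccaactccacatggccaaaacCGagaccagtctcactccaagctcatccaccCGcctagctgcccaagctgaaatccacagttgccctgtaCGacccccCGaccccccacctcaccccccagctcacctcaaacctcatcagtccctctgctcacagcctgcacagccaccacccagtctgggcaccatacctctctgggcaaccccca
WTIP: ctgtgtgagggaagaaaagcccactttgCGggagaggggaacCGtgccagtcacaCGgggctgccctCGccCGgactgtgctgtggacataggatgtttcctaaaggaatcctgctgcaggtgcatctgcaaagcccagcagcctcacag
SPON2: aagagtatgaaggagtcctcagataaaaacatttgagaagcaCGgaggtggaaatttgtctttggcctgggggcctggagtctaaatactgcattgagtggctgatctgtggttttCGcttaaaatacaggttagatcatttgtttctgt

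CG dinucleotides were no more frequent in these 4 stretches than in most promoter windows. The KIAA1217 stretch held 6 in 221 bases, the IDUA stretch 4 in 256 bases, the WTIP stretch 5 in 150 bases and the SPON2 stretch 2 in 150 bases. Of 35116 promoter windows of RefSeq (GRCh38.p14, 300 bases around each start, the same number of bases from their centre), 60.4%, 71.98%, 56.8% and 76.5% held at least as many. Of the 8 genes, 5 matched an entry (KIAA1217, PLPP4, WTIP, IDUA and SPON2), NRP1, CAVIN1 and EDN3 did not, and at least 1 CG was found in 96.0% of all windows. The window at the marked KIAA1217 start (chr10:23694477-23694776) held 33, that at the canonical WTIP start (chr19:34481508-34481807) 47 and that of PLPP4 (chr10:120456977-120457276) 42, against a median of 14 over all windows and of 9 over the windows of the 3300 genes. In IDUA the window at the marked start (chr4:999460-999759) held 13 and that at the canonical start (chr4:986794-987093) 31. In SPON2 the window nearest to the intronic WT peaks (chr4:1173131-1173430) held 7 and that at the canonical start (chr4:1172534-1172833) 26. Of these windows, only that at the marked IDUA start was reached by a WT peak of the TSS mark, in WT replicate 1.

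The TSS marks of the 8 genes were weak in WT. The deposited fold enrichment is the number of reads at the summit over the local background, each with 1 added, and the deposited q-value is given as its -log10. Over the 8 genes the strongest TSS peak had a median -log10 q of 2.29 (WT replicate 1) and 3.76 (WT replicate 2), compared with 5.28 and 6.77 over the 3300 genes marked in both WT lists. The weaker of the 2 WT peaks had a median fold enrichment of 3.27 compared with 4.73, and stood at the 35.1 percentile of the peaks of its list compared with the 83.6 percentile. The widest WT peak at a TSS had a median width of 570.5 bp compared with 2632 bp. The 83 genes with the same pattern over the whole genome were also weak and narrow, with medians of 2.58 and 3.002 for the -log10 q in the WT replicates, 3.18 for the fold enrichment and 635 bp for the width. The median number of annotated start sites was 9.5 over the 8 genes, against 3 over the 3300 genes and 3 over the 83. The number ranged from 1 in CAVIN1, 2 in WTIP and 3 in PLPP4 to 20 in SPON2, so not every member was above the median of 3.

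**Figure D1:**
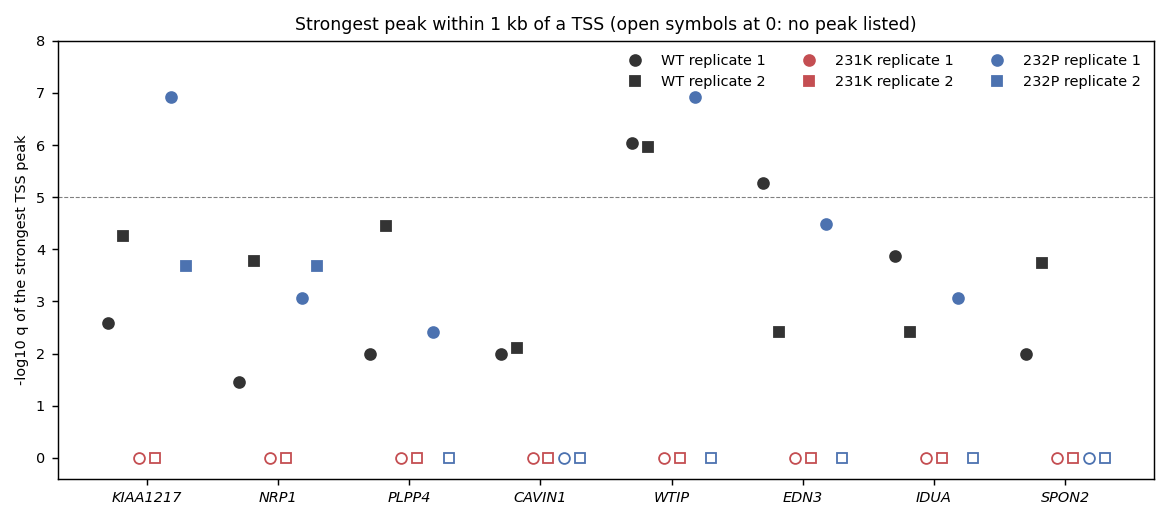
Strongest H3K27me3 peak within 1 kb of a TSS, as deposited -log10 q (vertical axis), for the 8 genes in the 6 lists (circles replicate 1, squares replicate 2; black WT, red 231K, blue 232P; open symbols at 0 where no peak is listed). WTIP is the only gene with both WT points above the dashed line at 5, and the red symbols are all open because the rule chose the genes so.

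In 3 of the 8 genes (NRP1, PLPP4 and CAVIN1) the WT replicates were marked by peaks that shared no base. The share of such genes was 6.79% over the 3300. Of the 83 genes with the same pattern, 69.9% had WT peaks that shared a base, compared with 62.5% of the 8. The window of 1 kb also decided membership for several genes. With the window set to 500 bp none of the 8 genes had a TSS mark in both WT lists, and with 2.5 kb only NRP1 and SPON2 still had no TSS mark in either 231K list. The nearest 231K peak lay 1063 bp from a start site in PLPP4, 1170 bp in CAVIN1, 1286 bp in WTIP and 1326 bp in KIAA1217, just beyond the limit, while 3 WT peaks lay just within it, at 1000 bp in NRP1 and at 990 and 999 bp in PLPP4. Among the upregulated genes, 11 had a TSS mark in both WT lists and in exactly 1 list of 231K, and those with the weakest 231K peaks were SVEP1 (-log10 q 1.88, 965 bp from the start site), VWA5B2 (2.46, 537 bp), RENBP (3.38, 848 bp), ITGA7 (3.81, 0 bp) and FAM20C (3.83, 609 bp). These are the genes just outside the rule, and the peaks that kept them out lay within the range of -log10 q of the WT peaks of the 8 genes.

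**Figure D2:**
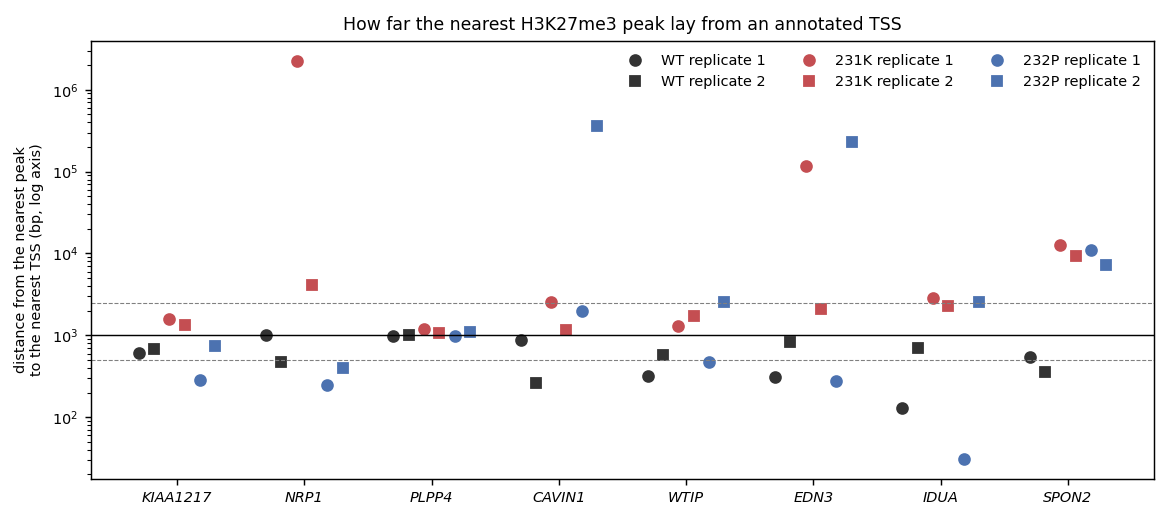
Distance in bp (log axis) from the nearest H3K27me3 peak to the nearest annotated TSS of each gene in each list (circles replicate 1, squares replicate 2; black WT, red 231K, blue 232P). The solid line is the limit of 1 kb and the dashed lines are 500 bp and 2.5 kb; PLPP4 has all its points within 972 to 1185 bp.

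EDN3 (ENSG00000124205.18, chr20:59300443-59325992, plus strand) encodes endothelin 3, the secreted ligand of the endothelin B receptor that guides neural crest cells. It had 8 start sites, and 4 of them, the canonical one at 59300611 included, were marked in both WT lists. A single peak was listed in WT replicate 1, with a fold enrichment of 5.16 and a -log10 q of 5.28, upstream of the gene and 314 bp from the first start site. In WT replicate 2 a single peak of fold enrichment 3.36 and -log10 q 2.41 lay 832 bp upstream. These peaks shared 151 bases, which no Tau-KO list covered. No peak was left in the gene or its flanks of 10 kb in 231K replicate 1, where the nearest was 117720 bp away. In 231K replicate 2 a peak of fold enrichment 3.33 and -log10 q 2.46 was found in an intron, 2127 bp from a start site. The list of 232P replicate 1 had an upstream peak of fold enrichment 5.47 and -log10 q 4.49 at 274 bp, which covered 462 of the 669 bases of the peak of WT replicate 1, whereas 232P replicate 2 had none within 228105 bp. Each line thus had 1 list with no peak at EDN3 or in its flanks and 1 list with a single peak.

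SPON2 (ENSG00000159674.12, chr4:1166932-1208962, minus strand) encodes spondin 2, or mindin, a secreted protein of the extracellular matrix. Of its 20 start sites, 4 were marked in both WT lists. The strongest TSS peak lay in an intron in WT replicate 1, with a fold enrichment of 3.18, a -log10 q of 1.99 and a distance of 545 bp. In WT replicate 2 it had a fold enrichment of 4.20 and a -log10 q of 3.73 at 354 bp. Neither line of Tau-KO cells had a TSS mark in any list, and none of their peaks shared a base with the WT peaks at the start sites. The nearest peaks were 12613 and 9370 bp from a start site in 231K and 10886 and 7203 bp in 232P. What remained lay downstream of the gene in 231K, with a peak of 179 bp in replicate 1 (fold enrichment 2.43, -log10 q 1.05) and 3 peaks in replicate 2, the widest of 3557 bp (fold enrichment 6.25, -log10 q 7.84). The strongest WT peaks within 10 kb were in this same downstream stretch, with a -log10 q of 3.86 and 5.19. At SPON2 the peaks near the start sites were thus missing from all Tau-KO lists, while the strongest downstream peak was above the WT values in 231K replicate 2 and below them in the other 3 lists, with a -log10 q of 2.26 and 3.27 in 232P.

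NRP1 (ENSG00000099250.18, chr10:33177492-33336262, minus strand) encodes neuropilin 1, the co-receptor for class 3 semaphorins and VEGF. Of its 13 start sites, 7 were marked in one or the other WT list and 0 in both. In WT replicate 1 the mark was a peak of 6 reads, with a fold enrichment of 2.78 and a -log10 q of 1.46, upstream and 1000 bp from the outermost start site at 33336262, thus at the edge of the window. In WT replicate 2 it was an intronic peak of 1084 bp with a fold enrichment of 3.94 and a -log10 q of 3.78, 475 bp from the start site at 33334382 and within reach of the canonical one at 33334667. These are different peaks, so both WT lists were marked at the gene but not at the same start site. The gene and its flanks had no peak in 231K replicate 1 (the nearest was 2266984 bp away) and 1 peak in 231K replicate 2, 4086 bp upstream (fold enrichment 3.05, -log10 q 2.30). Both 232P lists had a TSS mark, with a fold enrichment of 4.47 and a -log10 q of 3.06 in replicate 1, 247 bp from a start site, and 4.26 and 3.69 in replicate 2, 403 bp from it. The peak of 232P replicate 2 covered all 1084 bases of the intronic peak of WT replicate 2, and a second one, 1045 bp upstream, covered 570 of the 615 bases of the upstream peak of WT replicate 1. NRP1 was therefore marked in 232P at the start sites marked in WT replicate 2, with fold enrichments above those of both WT lists but a -log10 q below that of WT replicate 2.

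CAVIN1 (ENSG00000177469.13, chr17:42402449-42423256, minus strand) encodes a coat protein of caveolae, the small pits of the plasma membrane. It is the only member with a single start site. A peak of fold enrichment 3.18 and -log10 q 1.99 lay 865 bp upstream in WT replicate 1. In WT replicate 2 a peak of fold enrichment 2.95 and -log10 q 2.10 lay 261 bp upstream, with no base in common. No list of the Tau-KO lines had a peak over these. The strongest WT peaks of the gene were in an intron, 2042 and 1893 bp from the start, with a -log10 q of 4.56 and 3.73. A peak in that intron was also listed in 231K replicate 1 (fold enrichment 2.89, -log10 q 1.68) and 231K replicate 2 (5.84, 6.98), and in 232P replicate 1 (3.98, 2.41). In 231K replicate 2 a second peak lay 1170 bp upstream of the start. In 232P replicate 2 the nearest peak was 362417 bp away. At CAVIN1 the intronic peak thus had a higher -log10 q in 231K replicate 2 than in WT, while upstream the same list had a peak just beyond the window and 231K replicate 1 had none.

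PLPP4 (ENSG00000203805.11, chr10:120457227-120592065, plus strand) encodes a phospholipid phosphatase of the membrane. Of its 3 start sites, the first, which is the canonical one, was marked in both WT lists. In WT replicate 1 this was a peak in the first intron, 990 bp downstream (fold enrichment 3.18, -log10 q 1.99). In WT replicate 2 it was a peak 999 bp upstream (fold enrichment 4.62, -log10 q 4.45). Both WT peaks lay within 10 bp of the limit of the window. In 231K replicate 1 a peak 1185 bp upstream (fold enrichment 3.86, -log10 q 3.14) shared 167 bases with the peak of WT replicate 2, and in 231K replicate 2 a peak 1063 bp downstream (4.47, 4.49) shared 259 bases with that of WT replicate 1. The upstream peak was also present in 232P, at 972 bp in replicate 1 (3.98, 2.41), counted as a TSS mark, and at 1106 bp in replicate 2 (4.86, 4.38), not counted. PLPP4 thus had peaks at the WT positions in all 4 Tau-KO lists, and its place among the genes without a TSS mark in 231K rested on distances of 1185 and 1063 bp against a limit of 1000 bp.

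IDUA (ENSG00000127415.13, chr4:986997-1004564, plus strand) encodes alpha-L-iduronidase, the lysosomal enzyme that degrades heparan and dermatan sulphate. Of its 11 start sites, only that of the transcript IDUA-213 at 999710, 12666 bp downstream of the canonical one and with no defined coding sequence, was marked in WT. The strongest peak there had a fold enrichment of 4.37 and a -log10 q of 3.86 in WT replicate 1, 820 bp from the start site, and a second one of 3.97 and 3.20 lay at 131 bp. In WT replicate 2 the fold enrichment was 3.36 and the -log10 q 2.41, at 708 bp. In 232P replicate 1 a peak of 1040 bp (fold enrichment 4.47, -log10 q 3.06) ended 31 bp from this start site and overlapped all 3 WT peaks, and 232P replicate 2 had none. The peaks left in 231K lay between the end of IDUA and its neighbour FGFRL1, 2859 and 2257 bp from the last IDUA start, with a fold enrichment of 6.50 and 6.47 and a -log10 q of 8.55 and 8.79. These downstream peaks were present in all 6 lists, and the highest -log10 q in the WT lists was 6.83 and 6.77. In 232P the highest downstream was 5.05 in replicate 1 and 5.86 in replicate 2, below both WT values. The canonical IDUA promoter carried no peak in any list, and the first part of the gene overlaps SLC26A1 on the other strand.

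WTIP (ENSG00000142279.13, chr19:34481758-34512304, plus strand) encodes a LIM-domain protein of the Ajuba family, found at cell junctions and in the nucleus. Its mark was the strongest in WT of the 8. The intronic peak next to the second of its 2 start sites, 770 bp downstream of the canonical one, had a fold enrichment of 5.56 and a -log10 q of 6.04 in WT replicate 1 and of 5.46 and 5.96 in WT replicate 2. It was 13 and 12 reads high. In 232P replicate 1 a peak of fold enrichment 6.96 and -log10 q 6.93 covered all 565 bases of the peak of WT replicate 2. Neither 231K list nor 232P replicate 2 had a peak over these bases. A peak upstream of the gene, 1286 bp (fold enrichment 4.92, -log10 q 4.77) and 1713 bp (5.00, 5.34) from the canonical start, was listed in 231K, where the upstream WT peaks had a -log10 q of 1.28 and 1.81. A wide domain downstream of the gene remained in all 6 lists, where the highest -log10 q was 8.48 and 5.17 in WT, 9.69 and 7.84 in 231K, and 4.49 and 6.62 in 232P. WTIP was the only gene of the 8 that kept a TSS mark in both WT lists and lacked it in 231K when only peaks with a -log10 q of at least 5 were counted.

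KIAA1217 (ENSG00000120549.19, chr10:23694746-24547848, plus strand) encodes a coiled-coil protein known as sickle tail in mice, needed for intervertebral discs. Of its 13 start sites, the marked ones were the first 2, at 23694746 and 23694782, which lie up to 514392 bp upstream of the canonical start. These are the outermost promoters of a gene of 853103 bp. The strongest TSS peak had a fold enrichment of 3.57 and a -log10 q of 2.58 in WT replicate 1 and of 4.25 and 4.26 in WT replicate 2, and 6.96 and 6.93 in 232P replicate 1 and 4.41 and 3.69 in 232P replicate 2. It was one of many peaks, since the gene with its flanks held 32 and 23 in WT, 24 and 24 in 231K and 10 and 18 in 232P. In 231K the nearest were 1565 and 1326 bp from a start site. That of 231K replicate 2, upstream and 3910 bp wide (fold enrichment 6.47, -log10 q 8.79), shared 3711 of the 4301 bases of the TSS peak of WT replicate 2. In all 6 lists, 231K included, peaks thus lay on both sides of the KIAA1217 start sites and none over them, and in 231K the nearest were further away than in WT and 232P.

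**Figure D3:**
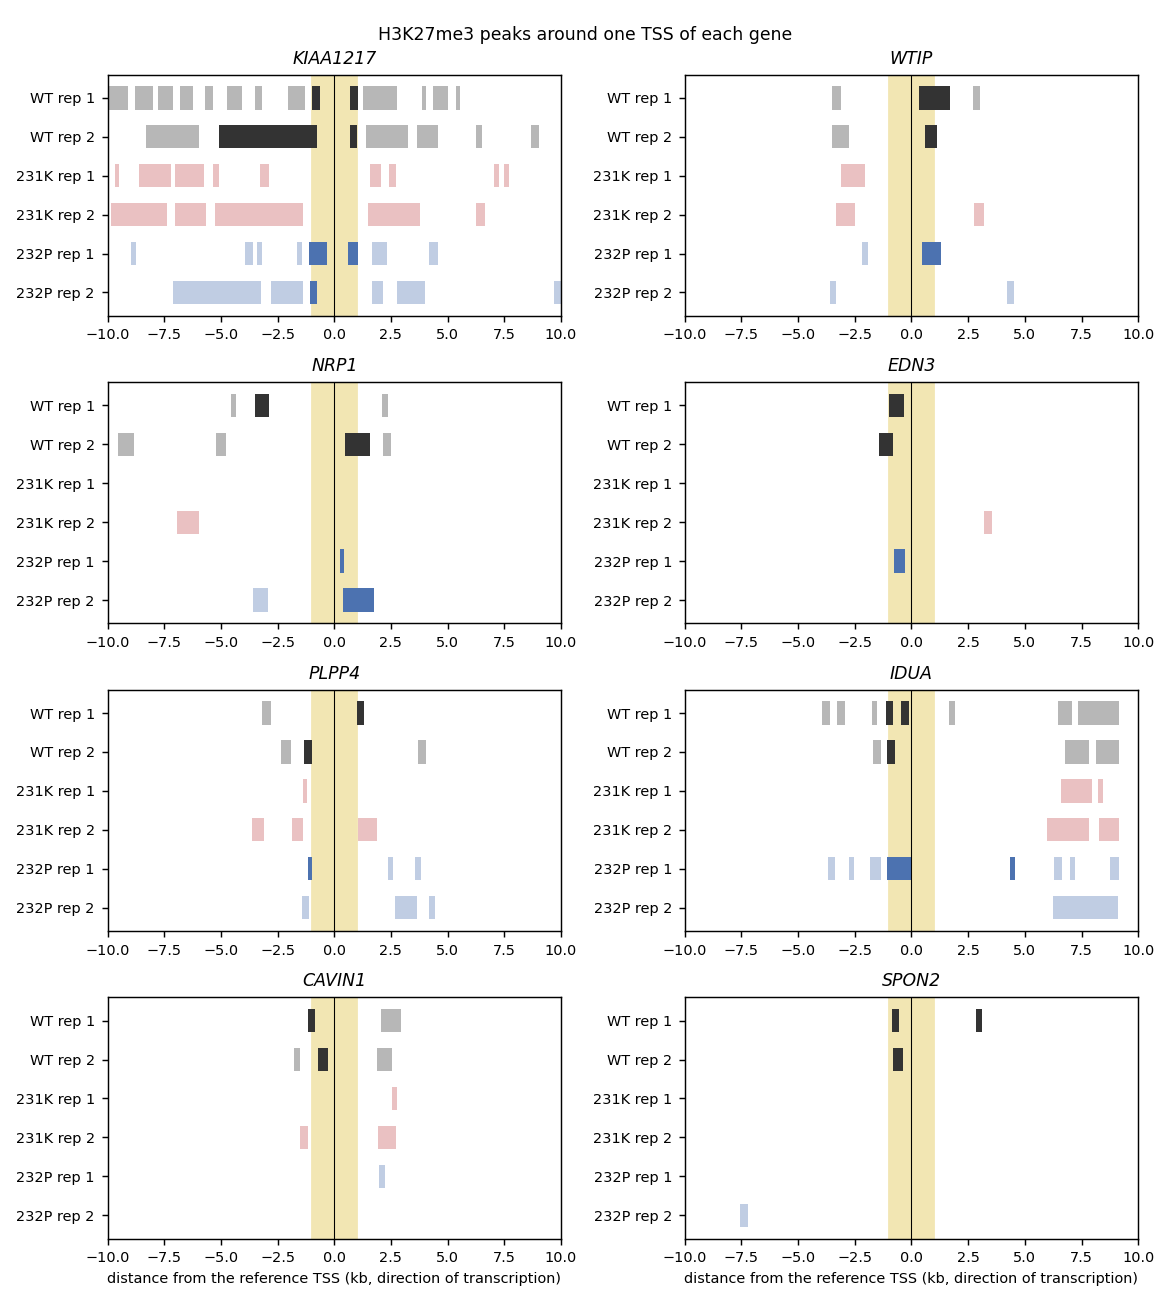
H3K27me3 peaks within 10 kb of one TSS of each gene (horizontal axis, kb, in the direction of transcription), one row per list. Each bar is a peak, dark where it lies within 1 kb of any TSS of the gene and pale where it does not, and the yellow band is 1 kb on each side of the TSS at 0; a dark bar outside the band lies near another TSS. The rows of 231K have no dark bar, but pale ones at the edges of the band in PLPP4, CAVIN1 and KIAA1217.

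In 2 of the 8 genes, PLPP4 and KIAA1217, a 231K peak overlapped a WT peak that made the TSS mark. This was the case for 27 of the 83 genes with the pattern, or 32.5%. With peaks of the 232P lists, 6 of the 8 genes had such an overlap, as had 43 of the 83, or 51.8%. In the gene with 10 kb on each side, 6 of the 8 genes had a peak in both 231K lists, NRP1 and EDN3 having none in replicate 1. Over the 3300 genes the share was 98%. In 232P, 6 of the 8 genes had a peak in both lists, CAVIN1 and EDN3 having none in replicate 2, against a share of 95%. The genes around which H3K27me3 was listed in both replicates of both lines were thus KIAA1217, PLPP4, WTIP, IDUA and SPON2.

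The line 232P was not used by the rule, but the WT lists were. Of the 8 genes, 2 (KIAA1217 and NRP1) had a TSS mark in both 232P lists, 4 (PLPP4, WTIP, EDN3 and IDUA) in 1 list, and 2 (CAVIN1 and SPON2) in neither. Over the 3300 genes, 71.3% had a TSS mark in both 232P lists and 7% in neither. Among the 83 genes without a TSS mark in 231K, 40 had one in neither 232P list, 38 in 1 list and 5 in both. Among the other 3217 genes these numbers were 191, 678 and 2348. The 3 genotypes share the WT lists in these counts, so a weak WT peak bears on both lines. In 232P replicate 1, 6 of the 8 genes had a TSS mark, and in 232P replicate 2 there were 2. Over the 3300 genes the order was the other way, with 78.5% marked in replicate 1 and 85.8% in replicate 2. Over the 83 genes without a TSS mark in 231K it was 37.3% and 20.5%. Where the marks of 232P replicate 1 and WT could be compared, the fold enrichment was above both WT values in KIAA1217 (6.96), NRP1 (4.47), WTIP (6.96), EDN3 (5.47) and IDUA (4.47) and between them in PLPP4 (3.98). By -log10 q it was above both WT values only in KIAA1217 and WTIP, with 6.93 in each, and below the higher WT value in NRP1 (3.06 against 3.78), EDN3 (4.49 against 5.28), IDUA (3.06 against 3.86) and PLPP4 (2.41 against 4.45). The median fold enrichment of all peaks was 3.97 in that list and 3.38 and 3.78 in WT, and the part of this difference in the values of the 8 genes was not tested.

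The length under peaks in the 8 genes and their flanks was 32677 and 42093 bp in WT, 18839 and 40622 bp in 231K, and 13053 and 30874 bp in 232P. The mean was 37385 ± 6658 bp in WT (SD, n = 2), 29731 ± 15403 bp in 231K and 21964 ± 12601 bp in 232P. The ratio to WT was 0.795 in 231K and 0.587 in 232P, compared with 0.981 and 0.568 for the length of all peaks in the lists. With only peaks of a -log10 q of at least 5 the ratio for 231K was 1.46, and its direction turned. Over all listed peaks in the 8 genes and their flanks, at any -log10 q, the mean fold enrichment was 3.48 and 3.78 in WT. It was 3.61 and 4.01 in 231K and 4.19 and 3.86 in 232P. The replicates of 231K lay further apart than the means of WT and 231K, and the value of 231K replicate 2 lay between the WT values. Between lists with the same replicate number, the ratio to WT was 0.577 and 0.965 in 231K and 0.399 and 0.733 in 232P for replicates 1 and 2, against 0.921 and 1.03 in 231K and 0.329 and 0.749 in 232P for the whole lists. An exact permutation test of 2 against 2 lists cannot give a p-value below 0.333, so none was made. KIAA1217 held 14472 and 21129 bp of the WT length. Without it the ratios were 0.742 and 0.637. With a single list of a line left, the ratio was 0.504 for 231K replicate 1 and 1.09 for 231K replicate 2, on either side of 1, and 0.349 and 0.826 for 232P replicates 1 and 2. In CAVIN1 all 4 Tau-KO lists (197, 1144, 266 and 0 bp) were below both WT lists (1200 and 1360 bp). The same held for EDN3 with 0, 368, 502 and 0 bp against 669 and 581 bp. Over the 3300 genes, 8.58% had all 4 Tau-KO lists below both WT lists. In the other 6 genes at least 1 Tau-KO list reached the range of WT.

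**Figure D4:**
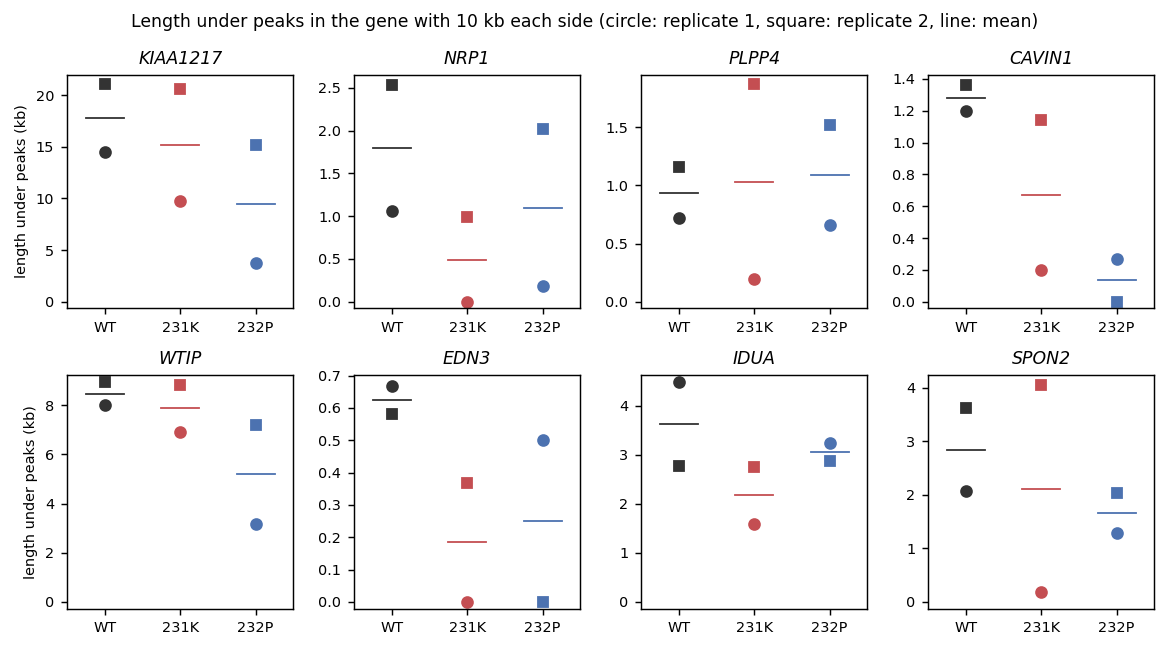
Length under H3K27me3 peaks (kb) in each gene with 10 kb on each side, by genotype (circle replicate 1, square replicate 2, line the mean of the 2). The Tau-KO points lie below both WT points in CAVIN1 and EDN3, while in PLPP4 and SPON2 a 231K point lies above them.

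Relatives and partners of the 8 genes were looked at as a list of 25 genes (other endothelins and their receptors, semaphorin and VEGF ligands, cavins and caveolins, phosphatases of the PLPP family, Ajuba-family proteins, SPON1, and lysosomal enzymes). Of these, 5 had a TSS mark in both WT lists, and all 5 (NRP2, CAVIN3, CAV1, CAV2 and SPON1) also had one in both 231K and both 232P lists. NRP2 is the second neuropilin, CAV1 and CAV2 form caveolae together with the cavins, and SPON1 is the spondin related to SPON2. A further 19 had no TSS mark in any list, the receptors EDNRA and EDNRB included, and IDS, a lysosomal enzyme of the same degradation pathway as IDUA, had one in WT replicate 1 and both 231K lists. None of these 5 lost its TSS mark in 231K, against the share of 2.52% over all genes marked in both WT lists, which with 5 genes is no difference that could be seen.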

How the data were processed

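H3K27me3 ChIP was done on SH-SY5Y cells. The authors used trimmomatic for trimming and BWA for mapping to hg38 (both BWA and deepTools are named in the submitters' processing notes) and called peaks per sample with MACS version 2, not on pooled replicates. The methods name the broadPeak setting, whereas the deposited lists have the 10 columns of narrowPeak. The q-value limit, the control library and the handling of duplicates are not given in the sources used here. The 6 input samples were not analysed here.

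Column 7 of the deposited lists is a fold enrichment, a ratio with 1 added to reads and background, columns 8 and 9 are the deposited -log10 of the p-value and q-value, and column 5, the deposited score, holds the -log10 q-value multiplied by 10. The depth of each library was taken from the lowest background of its list, divided by its shortest peak, which stands for the fragment length, since total reads are not in the lists. Summit heights were recovered from fold enrichment and p-value, and 100% were whole reads within 0.001 of the -log10 p-value. Precision is limited by these heights, and no intervals between samples were made.

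Start sites of all transcripts of protein-coding genes came from GENCODE release 44. A TSS mark required an overlap of at least 1 bp with the 1000 bp on either side of any start site. Peaks were listed for each gene with 10 kb on either side. The genes named are the 8 members, the genes just outside the rule, a list of relatives and partners, markers of the cell type and MAPT. Not all markers of the cell type are reported here, so those given do not stand for the whole list. The members and lists were chosen with earlier results of these data known. No test was made, because the rule used WT and 231K and because an exact permutation test of 2 against 2 lists cannot go below 0.333. Alternatives were other thresholds, windows, flanks and start sites, equal numbers of peaks, and leaving out each list. The functions were tested on simulated data. Python 3.11.15, numpy 2.4.6, pandas 2.3.3 and scipy 1.17.1 were used.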

Additional observations from a re-analysis of the deposited data

Results flagged for a closer look

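At the KIAA1217 start sites the strongest peak had a higher fold enrichment in both 232P lists than in both WT lists, while both 231K lists had none, as the rule that chose the genes required. The mean fold enrichment of the strongest TSS peak in 232P was 1.45 times that in WT. For NRP1 the ratio was 1.3, with a WT mean over 2 different peaks. The peak of WT replicate 1 (2.78) marked another start site than that of WT replicate 2 (3.94). Both 232P peaks (4.47 and 4.26) lay at the start sites marked in WT replicate 2. By -log10 q, 232P replicate 2 in KIAA1217 and both 232P lists in NRP1 were below WT replicate 2, with 6.93 and 3.69 against 2.58 and 4.26 in KIAA1217 and 3.06 and 3.69 against 1.46 and 3.78 in NRP1. The difference between the lines was not tested. The genome-wide floor of the background was lower in 232P, with 1.01 and 1.27 reads against 1.52 and 1.38 in WT, and its part in the higher fold enrichment was not tested.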

How the results depend on the processing

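No paired test was made because the results come from no test, and the ratios between lists with the same replicate number are given as a description. Lists with the same replicate number resembled each other in their shortest peak (179, 179 and 175 bp for replicate 1 and 244, 240 and 262 bp for replicate 2 in WT, 231K and 232P). Of the 8 genes marked in both WT lists but in neither 231K list, 1 was left with peaks of a -log10 q of at least 5, 4 with equal numbers of the strongest peaks, 0 with a window of 500 bp, 2 with a window of 2.5 kb, 3 with canonical start sites and 3 when the summit had to lie in the window. With the start sites of coding transcripts only, chosen after seeing the data, 7 were left, without IDUA. The number with a TSS mark in neither 232P list, 2, was 6 at the stricter q-value, 1 at 2.5 kb and 5 with canonical start sites, and ranged from 2 to 6 when 1 list was left out, with 6 without 232P replicate 1. The number with a mark in both 232P lists, 2, was 0 at the stricter q-value, 1 at 500 bp and 1 with canonical start sites, and ranged from 2 to 6, with 6 without 232P replicate 2. A peak in the gene and its flanks in both lists of a line was left in 3 genes instead of 6 at the stricter q-value, in 231K as in 232P. The share of all genes without a TSS mark in 231K, 2.52%, was 5.09% with the summit rule and ranged from 2.52% to 8.55% when 1 list was left out. That for 232P, 7%, was 19.1% at the stricter q-value and ranged from 7% to 21.6%. The length under peaks in 231K over WT, 0.795, was 1.46 at the stricter q-value and ranged from 0.504 (without 231K replicate 2) to 1.09 (without 231K replicate 1), so its direction turned in both settings above 1. That in 232P, 0.587, ranged from 0.349 (without 232P replicate 2) to 0.826. The causes were not tested. Of all values from these alternatives, 87 stayed within the spread between replicates or within 1.5 times of the count, and 27 did not. The 87 include the length ratios with 1 list left out, also that of 1.09 for 231K, where the direction turned.

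What limits these results is that each genotype had 2 lists, that the WT peaks of the TSS marks were 6 to 13 reads high, and that membership in 231K rests on missing peaks.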
